A study of Homo sapiens with 15 samples.

Results

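CGNL1 and PLEKHA6 and 5 related genes of cell junction scaffolds, CGN, PLEKHA5, PLEKHA7, TJP1 and PARD3, were followed in IMR32 cells. Members were chosen by name, and every probe set whose only gene symbol in the platform annotation was 1 of these 7 genes was taken. This gave 7 of the 19775 genes on the array, read by 17 probe sets, of which 14 passed the filter on low signal. CGNL1 and PLEKHA6 were chosen because earlier results of these data had placed them among the largest rises of induced cells over control cells at t = 48 and over t = 0. Their values in those 4 comparisons are therefore given as a description, without a test.

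IMR32 is an established human neuroblastoma cell line, here carrying an MSX1 gene that doxycycline in the medium switched on. MSX1 is a homeodomain transcription factor. RNA was measured on 15 Affymetrix arrays, 3 for each of 5 groups. Induced cells, with doxycycline, were sampled at t = 8, t = 24 and t = 48, control cells, kept alike without doxycycline, at t = 48, and a starting group at t = 0. All 5 groups carried the inducible MSX1 gene, and cells without it that received doxycycline were not analysed here. The labels give no unit of time and do not say whether the line is 1 clone. They also do not say that replicates came from separate cultures, so each p-value reflects only the spread among these arrays, and that spread can be technical.

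Tight junctions and adherens junctions hold neighbouring cells together and are best known in epithelia. Their membrane proteins are tied to the cytoskeleton by scaffold proteins. Cingulin (CGN) and its relative paracingulin (CGNL1) are scaffolds of this kind, TJP1 encodes the zonula occludens protein that binds claudins and occludin, and PLEKHA7 is an adherens junction protein that binds p120 catenin and paracingulin. PLEKHA5, PLEKHA6 and PLEKHA7 are relatives that carry WW domains beside a pleckstrin homology domain, and PARD3 is a scaffold of the cell polarity complex.

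The sequence upstream of the start is shown for 3 genes, because CGNL1 and PLEKHA6 were the members chosen for their rises in induced cells and CGN is the closest relative of CGNL1. Each is the 250 bases before the start of the gene in the RefSeq promoter table of GRCh38.p14, 5′ to 3′ on the strand of the gene, and capitals mark CACGTG, an E-box. CGNL1 lies on the plus strand (chr15:57376255-57376504), PLEKHA6 on the minus strand (chr1:204359930-204360179) and CGN on the plus strand (chr1:151511137-151511386).
CGNL1: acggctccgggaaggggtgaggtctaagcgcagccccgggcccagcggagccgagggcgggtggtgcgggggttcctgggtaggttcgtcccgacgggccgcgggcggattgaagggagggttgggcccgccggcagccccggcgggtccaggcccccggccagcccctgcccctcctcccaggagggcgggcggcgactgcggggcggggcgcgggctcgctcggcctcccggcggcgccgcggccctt
PLEKHA6: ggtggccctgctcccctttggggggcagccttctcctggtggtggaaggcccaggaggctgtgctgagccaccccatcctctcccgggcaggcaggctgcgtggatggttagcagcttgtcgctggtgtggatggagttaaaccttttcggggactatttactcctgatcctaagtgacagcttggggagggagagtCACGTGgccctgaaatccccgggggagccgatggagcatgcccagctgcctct
CGN: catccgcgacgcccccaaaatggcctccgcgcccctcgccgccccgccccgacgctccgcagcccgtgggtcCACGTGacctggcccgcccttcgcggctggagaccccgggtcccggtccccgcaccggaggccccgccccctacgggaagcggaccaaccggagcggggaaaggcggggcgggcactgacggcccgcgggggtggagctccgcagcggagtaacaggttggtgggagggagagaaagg

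The upstream sequence of CGNL1 had 80.4% G and C and 33 CpG sites, and that of CGN 76.0% and 32. That of PLEKHA6 had 62.4% and 7 CpG sites, against medians of 58.0% and 11 over the 35116 promoters of the table. The homeodomain core letters CAATTA, which read TAATTG on the opposite strand, and the palindrome TAATTA were in none of the 10 upstream sequences that the table held for CGNL1, CGN, PLEKHA6, PLEKHA5 and TJP1. Of all promoters, 6.703% held CAATTA and 4.346% held TAATTA in the same 250 bases. CACGTG, which was searched for only after these sequences had been seen, began 53 bases before the start in PLEKHA6 and 178 in CGN. It was found in 6.345% of all promoters. A match is a description of letters and not a binding site. PARD3 and PLEKHA7 were not analysed in this way.

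The signals are MAS5 intensities on a linear scale. The filter kept probe sets at or above the median of their array on at least 3 of the 15 arrays, which left 30676 probe sets. Differences are limma log2 fold changes of the signal plus an offset of 5.16, which understates changes at low signal. Adjusted p-values are two-sided and adjusted by Benjamini-Hochberg over all 30676 probe sets, with a threshold of 0.05. Some groups are described as lying above or below another without overlap. The share of all probe sets that did so was not counted, so a lack of overlap is a description and not a result. Array medians lay between 18.1 and 22.6. A bioC hybridisation control was weak on 2 arrays: it read 87.6 on replicate 1 of induced t = 24 and 98.9 on replicate 3 of induced t = 48, and 346.3 to 429.6 elsewhere. The adrenergic neuroblastoma transcription factor gene GATA3 read 3085 to 3745.9 and MYCN 4333.8 to 5715.9 over all arrays, while TH, which encodes tyrosine hydroxylase, read 0.8 to 11.9 and was not kept.

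MSX1 itself was measured by a pair of probe sets. The brighter one read 96.9, 67.7 and 84.9 in induced cells at t = 48 against 46.5, 50.2 and 55.5 in control cells, a log2 fold change of 0.65 (SE 0.15, adjusted p = 0.0278). The other probe set gave -0.42 (adjusted p = 0.45), and in induced cells at t = 48 it was lower than at t = 0 (-0.99, adjusted p = 0.0468), a call lost without any 1 array but induced t = 48 replicate 3 (adjusted p up to 0.143). Whether either probe set lies in the introduced gene is not known here. Against t = 0, the brighter probe set of MSX1 gave, in induced cells, 0.51 at t = 8 (adjusted p = 0.192), 0.55 at t = 24 (adjusted p = 0.0491) and -0.40 at t = 48 (adjusted p = 0.104). It fell by 1.05 in control cells at t = 48 (adjusted p = 0.0116). In induced cells the brighter probe set was lower at t = 48 than at t = 24 (-0.96, adjusted p = 0.00439), and this call held without any single array, although it was lost in the fit of the compared groups alone (adjusted p = 0.077). The 3 other calls of the brighter MSX1 probe set depended on single arrays: against control cells the call was lost without any 1 of 5 of the 6 arrays (all but induced replicate 2; adjusted p up to 0.105), at t = 24 without any array but induced replicate 1 (up to 0.165), and in control cells without replicate 1 or 2 of t = 0 or replicate 2 or 3 of control cells (up to 0.0611). Without both arrays of weak hybridisation the first was 0.63 (adjusted p = 0.073) and the one at t = 24 was 0.66 (adjusted p = 0.0616).

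CGNL1 had its highest signals at t = 24. Probe set 225817_at read 35.1, 55.1 and 49.3 at t = 0 and, after induction, 200.9, 180.6 and 146.6 at t = 8, 368.9, 300.2 and 304.8 at t = 24 and 280.9, 269.3 and 264.2 at t = 48. Control cells at t = 48 read 49.4, 26.4 and 28.8. Each of the 9 induced arrays thus lay above each of the 6 arrays of cells at t = 0 or of control cells, and the 3 induced times did not overlap with each other. In order of the mean, t = 24 (325 ± 38.4) stood above t = 48 (271 ± 8.56), t = 8 (176 ± 27.4), t = 0 (46.5 ± 10.3) and control cells at t = 48 (34.9 ± 12.6; SD, n = 3 each). The last 2 of these groups overlapped. In bulk RNA, a change in the share of cells that express a gene and a change in RNA per cell cannot be told apart.

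Induced cells at t = 48 had 7.79 times the mean CGNL1 signal of control cells on this probe set, a log2 fold change of 2.83 (SE 0.20), and 11 of the 30676 probe sets had a larger one. Against t = 0, induced cells had a log2 fold change of 1.82 at t = 8, 2.69 at t = 24 and 2.44 at t = 48. Over 17 alternative settings the value against control cells ranged between 2.43 and 3.08. Control cells at t = 48 did not differ detectably from t = 0 (-0.39, 95% interval -0.84 to 0.05, adjusted p = 0.639). Both groups were references in the comparisons that chose CGNL1, so nothing is read from their likeness. CGNL1 rose further in induced cells between t = 8 and t = 24, by 0.87 (SE 0.20, adjusted p = 0.0467). That step shares arrays with the comparisons that chose the gene, and its call was lost when any 1 of the 6 arrays was left out (adjusted p between 0.0742 and 0.159) and without both arrays of weak hybridisation (adjusted p = 0.172). At t = 48 against t = 24, all 3 arrays were lower, but -0.25 was short of the threshold (adjusted p = 0.73).

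The other CGNL1 probe set, 1569847_at, was dim and gave smaller differences. It read 17.9, 23.4 and 6.9 at t = 0 and, after induction, 27.8, 25.7 and 19.3 at t = 8, 28.4, 18.5 and 30.6 at t = 24 and 17.4, 17.3 and 24.3 at t = 48, and 15, 11.4 and 9.7 in control cells at t = 48. Its groups overlapped at every neighbouring pair in the order of means, which was also highest at t = 24, although the 3 induced arrays at t = 48 lay above the 3 control arrays. The log2 fold change of induced over control cells at t = 48 was 0.53 for this probe set, against 2.83 for 225817_at. Over the 15 arrays the pair of CGNL1 probe sets correlated with r = 0.69.

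PLEKHA6, which encodes a junction protein with a pleckstrin homology domain, had its highest signals at t = 48. Probe set 229245_at read 11.2, 1.7 and 1.4 at t = 0 and, after induction, 35.3, 35.8 and 40.3 at t = 8, 52.8, 39.7 and 41.7 at t = 24 and 109.0, 104.7 and 174.7 at t = 48. In control cells at t = 48 it read 3.4, 2.0 and 3.6. All 9 induced arrays lay above all 6 others. The order of means was t = 48 (129 ± 39.2), t = 24 (44.7 ± 7.06), t = 8 (37.1 ± 2.75), t = 0 (4.77 ± 5.57) and control cells (3.0 ± 0.872; SD, n = 3 each), with overlap between t = 24 and t = 8 and between t = 0 and control cells.

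On this probe set of PLEKHA6 the mean signal of induced cells at t = 48 was 43.2 times that of control cells, with a log2 fold change of 4.01 (SE 0.30), and 4 probe sets of the table had a larger one. Because control signals were close to 0, the size depended on the offset, and the log2 fold change ranged between 2.67 and 5.01 over 17 alternative settings. Against t = 0, induced cells had 2.23 at t = 8, 2.46 at t = 24 and 3.86 at t = 48. The difference of control cells at t = 48 from t = 0 was -0.15 (adjusted p = 0.932) and that of induced t = 24 from induced t = 8 was 0.23 (adjusted p = 0.716). Control cells and t = 0 were the references in the comparisons that chose PLEKHA6, so nothing is read from their likeness. Between t = 24 and t = 48 PLEKHA6 rose in induced cells by 1.40 (SE 0.30, adjusted p = 0.0255), a step that shares arrays with the comparisons that chose the gene.

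The second PLEKHA6 probe set, 205093_at, was low before t = 48. It read 6.2, 2.2 and 1.0 at t = 0 and, after induction, 2.8, 4.0 and 14.0 at t = 8, 9.7, 5.6 and 21.8 at t = 24 and 44.3, 51.2 and 43.6 at t = 48, and 2.4, 2.3 and 2.4 in control cells. It passed the filter through 4 arrays, the 3 induced arrays at t = 48 and 1 at t = 24, so a high signal in those groups was what passing required. The log2 fold change of induced over control cells at t = 48 was 2.77, and between 1.57 and 3.81 over 15 alternative settings. The difference between t = 48 and t = 24 in induced cells was 1.66 on this probe set, which is given without a test because the filter fixed its direction. For 229245_at, which all 9 induced arrays carried past the filter, the late call was lost without both arrays of weak hybridisation (adjusted p = 0.13) and without induced t = 24 replicate 2 or 3 or induced t = 48 replicate 1 or 3 (adjusted p up to 0.108).

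**Figure D1:**
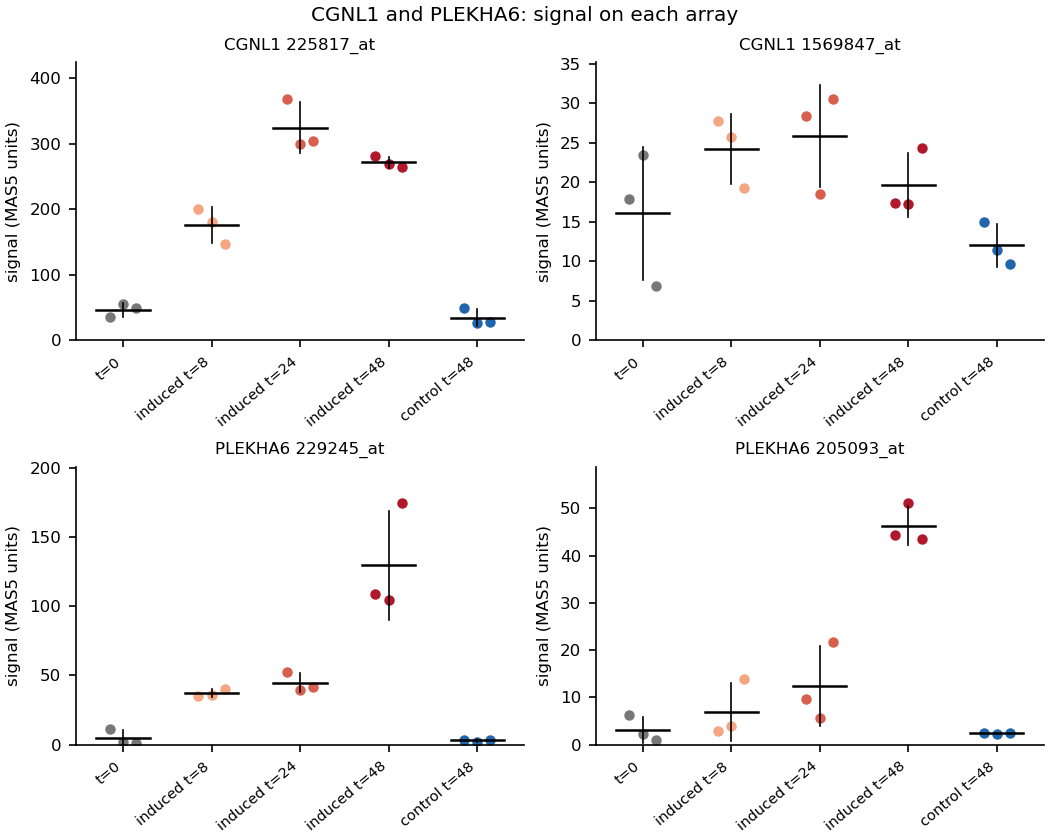
Signals of the CGNL1 and PLEKHA6 probe sets in MAS5 units (vertical axes, linear, starting at 0) in the 5 groups (horizontal axes). Points are arrays, long bars are means and vertical lines are SDs of 3 arrays. CGNL1 225817_at was highest at t = 24 and PLEKHA6 229245_at at t = 48, and control cells at t = 48 read at most 49.4 and 3.6.

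None of the 10 kept probe sets of the other 5 genes passed limma in any of the 7 comparisons. CGN, the cingulin gene, was dim. Probe set 223233_s_at read 15.9, 9.7 and 17.8 at t = 0 and, after induction, 16.2, 20.2 and 29.5 at t = 8, 24.2, 19.9 and 3.2 at t = 24 and 25.0, 15 and 26.5 at t = 48, and 33.8, 28.8 and 3.3 in control cells at t = 48. The groups overlapped in all 7 comparisons. Induced over control cells at t = 48 gave a log2 fold change of 0.26, with a 95% interval of -0.94 to 1.46 that is too wide to place CGN near or far from no change (adjusted p = 0.828). The other CGN probe set was not kept and read between 1.8 and 15.7.

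TJP1 gave steady signals. Probe set 202011_at read 407.5, 383.0 and 421.1 in induced cells and 436.1, 352.9 and 349.1 in control cells at t = 48, after 322.0, 358.7 and 399.8 at t = 0. Induced and control cells overlapped, with a log2 fold change of 0.10 (95% interval -0.14 to 0.33, adjusted p = 0.667), and the other TJP1 probe set gave -0.11 (-0.44 to 0.23, adjusted p = 0.738). Over all 7 comparisons the values of the brighter TJP1 probe set lay between -0.12 and 0.19, and none passed.

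PLEKHA7 had its highest mean signals in cells at t = 48, induced or not, although t = 0 replicate 2 (34.2) read above induced t = 48 replicate 3 (33.0). It read 22.5, 34.2 and 24.9 at t = 0 and, after induction, 27.7, 20.9 and 24.6 at t = 8, 22.3, 29.1 and 24.4 at t = 24 and 40.3, 40.2 and 33.0 at t = 48, and 46.3, 41.5 and 42.1 in control cells. All 3 control arrays of PLEKHA7 lay above the 3 arrays of t = 0 (0.60, 95% interval 0.29 to 0.91) and above the 3 induced arrays at t = 48 (induced over control -0.18, -0.49 to 0.13), but neither difference passed (adjusted p = 0.149 and 0.523). Induced cells at t = 48 also lay above induced cells at t = 24 without overlap (0.50, adjusted p = 0.115). Against t = 0 they gave 0.42 (adjusted p = 0.0754), which passed when t = 0 replicate 2 was left out (adjusted p = 0.0252). The other PLEKHA7 probe set was not kept and read 0.7 to 18.3.

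PLEKHA5 was measured by 3 probe sets, of which 1 read 0.3 to 8.4 and was not kept. Probe set 220952_s_at read 215.8, 171.5 and 230.6 at t = 0 and, after induction, 180.8, 223.9 and 212.5 at t = 8, 327.8, 274.3 and 256.7 at t = 24 and 254.0, 256.6 and 300.3 at t = 48, and 204.2, 241.0 and 274.0 in control cells at t = 48. Induced cells at t = 24 and at t = 48 lay above t = 0 without overlap, with log2 fold changes of 0.47 (adjusted p = 0.0881) and 0.39 (adjusted p = 0.106), and induced cells overlapped with control cells at t = 48 (0.18, adjusted p = 0.538). With a variance that follows signal, the PLEKHA5 value at t = 24 passed (adjusted p = 0.0392). Probe set 214989_x_at, whose name marks probes that may match several transcripts, ranged from 107.6 to 281.7 within induced cells at t = 48 and gave 0.21 against control cells (-0.46 to 0.87, adjusted p = 0.747).

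PARD3 was measured by 4 kept probe sets, which differed among themselves. Probe set 221280_s_at read 46.4, 38.2 and 50.2 in induced cells and 19.8, 36.3 and 31.6 in control cells at t = 48. Probe set 221527_s_at read 140.4, 118.2 and 129.9 in induced cells and 113.5, 80.9 and 97.5 in control cells. On both of these PARD3 probe sets all induced arrays lay above all control arrays, with log2 fold changes of 0.57 (95% interval 0.18 to 0.95, adjusted p = 0.0863) and 0.40 (0.10 to 0.71, adjusted p = 0.121). Neither passed, and nothing is read from the lack of overlap. The other 2 PARD3 probe sets overlapped, with 0.19 for 210094_s_at and 0.05 for 221526_x_at. Correlations between PARD3 probe sets over the 15 arrays ranged between 0.32 and 0.67.

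**Figure D2:**
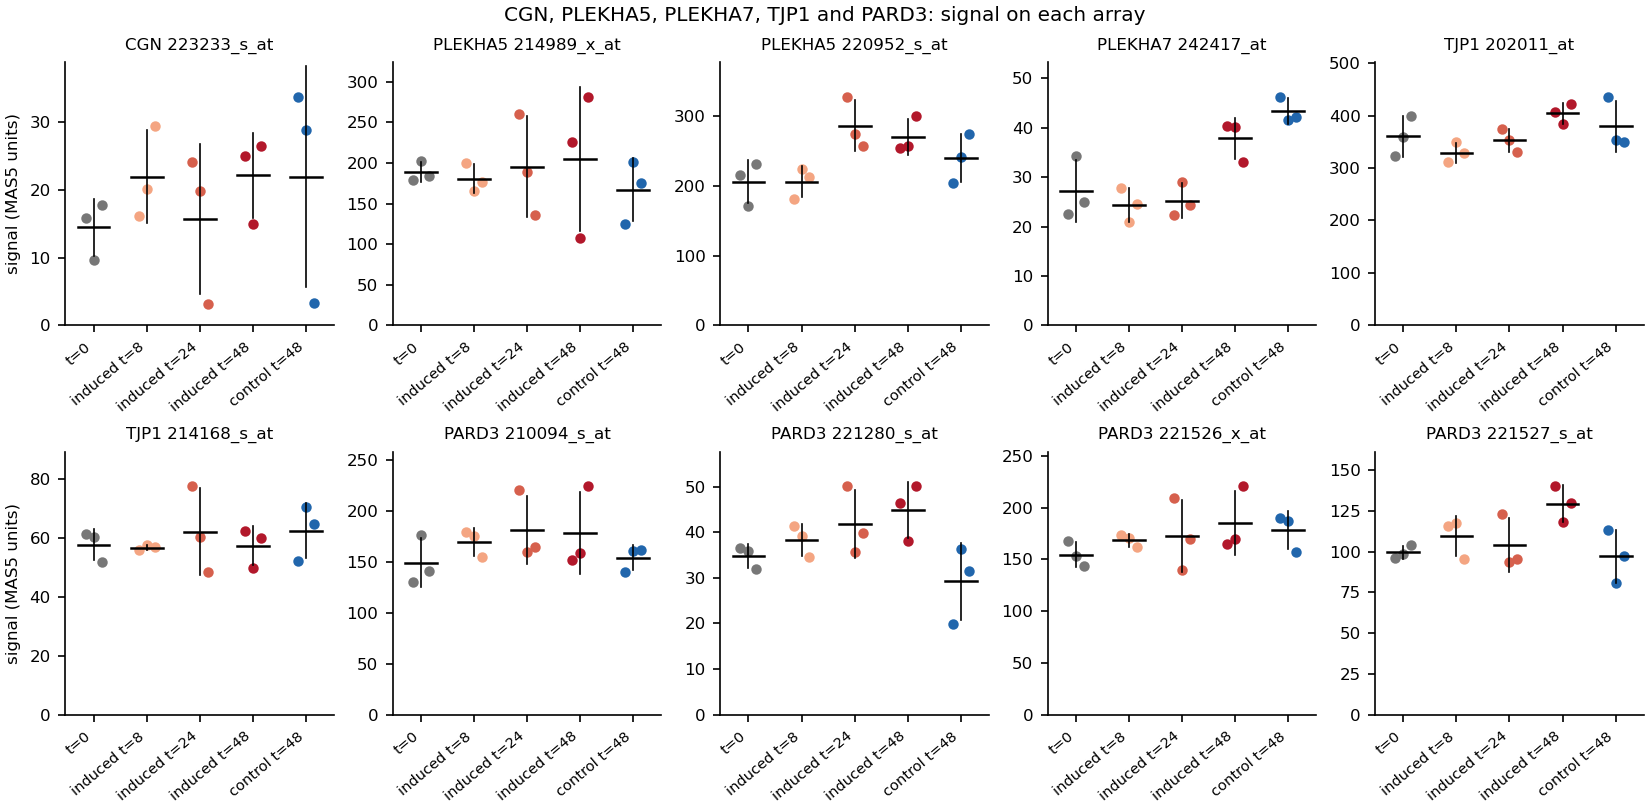
Signals of the 10 kept probe sets of CGN, PLEKHA5, PLEKHA7, TJP1 and PARD3 in MAS5 units (vertical axes, linear, starting at 0) in the 5 groups. Points are arrays, long bars are means and vertical lines are SDs of 3 arrays; PLEKHA7 stood highest at t = 48 in control cells (41.5 to 46.3).

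Of the 14 kept probe sets, induced cells at t = 48 had 3 above and 0 below control cells, against 3.39% of all 30676 probe sets called higher and 1.74% called lower. The 3 were those of CGNL1 and PLEKHA6 that chose the genes, so nothing is read from the count. Of the 10 probe sets of the other 5 genes 0 passed limma in this comparison, and 2, both of PARD3, had an unadjusted p under 0.05, as had 20.3% of all probe sets. The median log2 fold change of the 10 was 0.18, against 0.01 over all probe sets, and 8 of 10 were above 0, against 51.7% of all. The 10 read only 5 genes, so they are not independent.

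Against t = 0 in induced cells, the 10 probe sets of the other 5 genes had 0 calls at each time. At t = 8, 0.554% of all probe sets were called higher and 0.551% lower, and 0 of the 10 had an unadjusted p under 0.05, against 8.41% of all. At t = 24, with 3.7% called higher and 2.38% lower, 1 of the 10 had one, that of PLEKHA5, against 20.8% of all. At t = 48, with 6.84% called higher and 4.59% lower, 3 did, those of PLEKHA5, PLEKHA7 and PARD3, against 28.1% of all, so the share was near the background. Of the 10, 9 were above 0 with a median of 0.28, against 51.8% of all above 0 and a median of 0.02. Without induction, in control cells at t = 48 against t = 0, 7 of the 10 were above 0 with a median of 0.08. Several of the 10 read the same gene, so they are not independent. CGNL1 and PLEKHA6 supplied the 2, 2 and 3 member calls at t = 8, t = 24 and t = 48, all higher, and the 2 at t = 8 became 0 when only the compared groups were fitted. These comparisons share the arrays of t = 0.

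In control cells at t = 48 against t = 0, 0 of the 14 kept probe sets passed limma, 1 had an unadjusted p under 0.05 (PLEKHA7), against 8.79% of all, and 0.186% of all probe sets were called higher and 0.14% lower. From t = 8 to t = 24 in induced cells 1 of 14 was higher (CGNL1), against 1.53% higher and 0.857% lower over all. From t = 24 to t = 48, 1 of the 13 probe sets other than 205093_at was higher (PLEKHA6 229245_at), against 1.28% higher and 0.975% lower over all. CGNL1 and PLEKHA6 were chosen on comparisons that share these induced arrays, so nothing is read from the counts of either step. With each array centred on its median, the split of higher and lower calls over all probe sets changed to 106 and 70 at t = 8 against t = 0, to 11 and 17 in control cells at t = 48, to 170 and 49 from t = 8 to t = 24, and to 192 and 220 from t = 24 to t = 48. Before centring the splits were 170 and 169, 57 and 43, 468 and 263, and 392 and 299.

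**Figure D3:**
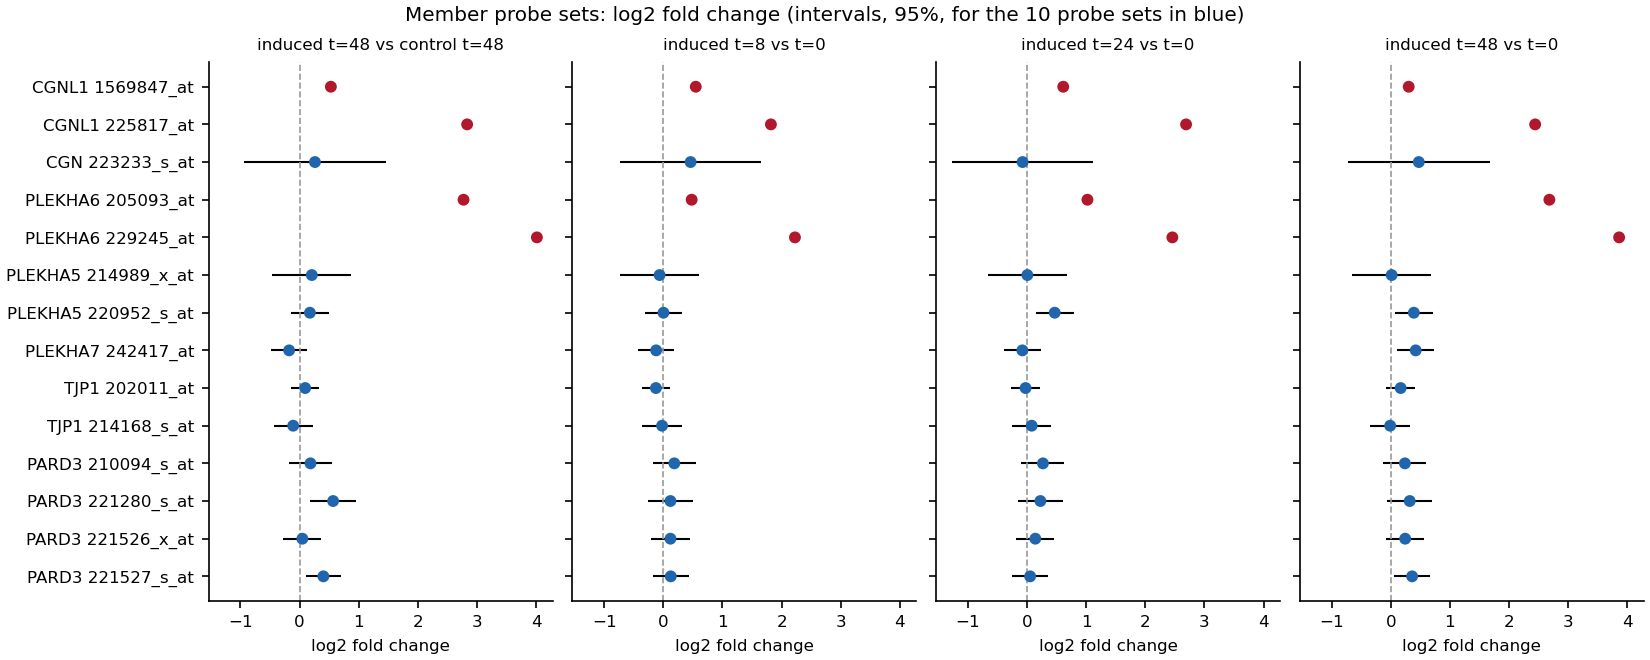
Log2 fold changes (horizontal axes) of the 14 kept probe sets in 4 comparisons, with 95% intervals for the 10 probe sets of CGN, PLEKHA5, PLEKHA7, TJP1 and PARD3 in blue. CGNL1 and PLEKHA6, in red and without intervals, were chosen on these comparisons; at t = 48 their brighter probe sets stood at 2.83 and 4.01 over control cells, and the blue ones between -0.18 and 0.57.

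The epithelial genes that usually accompany these scaffolds were low or not called. Of 8 epithelial markers 2 were kept, the keratin genes KRT8 and KRT18, and 0 of these were called in any of the 7 comparisons. CDH1, which encodes E-cadherin, read 0.3 to 8.7 and EPCAM 0.4 to 21.1 over all arrays. The summed signal of the 8 markers at t = 48 was 77.7 to 97.0 with induction, against 68.6 to 117.8 in control cells. Of 7 kept fibroblast markers, induced cells at t = 48 had 2 above and 0 below control cells, LUM (log2 fold change 2.53) and COL3A1 (1.06), and 5 were not called. LUM passed the filter through induced arrays alone, the 3 at t = 24 and the 3 at t = 48. The filter therefore favoured higher LUM values in those groups. The other 2 COL3A1 probe sets missed the threshold (0.52, adjusted p = 0.246, and 0.82, adjusted p = 0.0667), as did 4 of COL1A1, which lay between -0.51 and 0.44. Signals of the 8 fibroblast markers on the array were summed, by the brightest probe set of each. COL1A1 (308.3 to 1060 over all arrays) and PDGFRA (694.1 to 1344.8) made up most of each sum. Neither was called against control cells at t = 48, so the sums mainly follow these 2 genes. The sums at t = 48 were 2058.6 to 2090.5 in induced cells against 1523.4 to 1621.4 in control cells. They were highest in the induced group of t = 24, as CGNL1 was, with 2480.3 to 2546.2. The starting group gave 1205.2 to 1359.9. Compared with the starting group, 4 of the 7 kept fibroblast markers were called higher in that t = 24 group (median log2 fold change 0.74). The t = 48 induced group had 3 such calls (0.62), the t = 8 group 1 (0.20) and control cells 0 (0.24). In these comparisons 0 were called lower. Of 8 kept neuroblastoma markers, 2 were higher in induced than in control cells at t = 48, CHGA (0.90) and PHOX2A (0.70), and 1 lower, ISL1 (-1.20). Of 2 kept endothelial markers 0 were called in this comparison. At t = 24 against t = 0, 1 of them, KDR, was called higher, and KDR passed the filter through induced arrays alone. Of the 2 Schwann cell markers on the array 0 were kept. By the brightest kept probe set of each gene, 4.01% of 12880 genes were called higher in induced than in control cells at t = 48 and 2.26% lower. Against t = 0 in induced cells, 0.784% were called higher at t = 8, 4.62% at t = 24 and 7.97% at t = 48. The part of these markers in the CGNL1 and PLEKHA6 values was not tested.

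The genes of 4 lists were followed next, with the brightest kept probe set of each gene. Read in this way, induction against control at t = 48 gave 4.01% of 12880 genes called higher and 2.26% called lower. Against t = 0 in induced cells, 0.784% were called higher and 0.683% lower at t = 8, 4.62% and 3.32% at t = 24, and 7.97% and 5.79% at t = 48. Counts of 1 or 2 genes in a list of 11 to 18 can be near these shares, and nothing particular to a list is read from them. Of 11 kept tight junction genes out of 24, induced cells at t = 48 had 1 above and 0 below control cells. It was OCLN, which encodes occludin, at 154 ± 15.8 in induced and 107 ± 12.4 in control cells (SD, n = 3 each; log2 fold change 0.51, adjusted p = 0.0234). A second OCLN probe set gave 0.71 (adjusted p = 0.0349) and the other 2 did not pass. The OCLN call was lost without induced t = 48 replicate 2 or 3 or control replicate 1 or 2, without the arrays with weak hybridisation controls and with arrays centred on the median (adjusted p up to 0.116 over all settings). Against t = 0, 4 tight junction genes were higher and 1 lower at t = 48 in induced cells, among them OCLN (0.66), the claudin genes CLDN15 (0.55) and CLDN12 (0.53), and, as the lower one, CLDN11 (-0.92). CLDN11 passed the filter through 4 arrays, all 3 of t = 0 and 1 of control cells. MAGI3, a scaffold gene, was the 1 tight junction gene higher at t = 24 (0.42), a call lost without some single arrays (adjusted p up to 0.16 over all settings), and its other 2 probe sets missed the threshold (0.12, adjusted p = 0.599, and 0.13, adjusted p = 0.708). The claudin calls rested on single arrays: each was lost when some 1 array was left out, with adjusted p up to 0.178 over all settings.

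Of 18 kept polarity genes out of 20, induced cells at t = 48 had 2 above and 0 below control cells. CRB1, a crumbs family gene, read 54.3 ± 11.7 in induced and 16.1 ± 3.20 in control cells (SD, n = 3 each; 1.48, adjusted p = 0.00119). It passed the filter through 8 arrays, of which 7 were from induced cells, 1 from control cells and 0 from t = 0. The filter therefore favoured higher CRB1 values in induced cells, and most of all against t = 0. With this limit, CRB1 was also higher than at t = 0, by 1.44 at t = 24 and 2.24 at t = 48. At t = 8 it was higher by 0.97, a call that held in 3 of 17 alternatives (adjusted p up to 0.275). The second CRB1 probe set missed the threshold with 1.07 against control cells (adjusted p = 0.102). DLG5, a guanylate kinase scaffold gene, read 1016 ± 43.1 in induced and 687 ± 10.6 in control cells (SD, n = 3 each; 0.56, adjusted p = 0.00169), while its other probe set gave 0.15 (adjusted p = 0.725). At t = 24 against t = 0, DLG5 (0.41) was higher too. LIN7A, a polarity scaffold gene, had 4 kept probe sets: the brightest was not called against control cells (-0.25, adjusted p = 0.373), while another was lower (-1.24, adjusted p = 0.0131), a call lost without induced t = 48 replicate 3 or control replicate 1 (adjusted p up to 0.061). PATJ, a multi-PDZ scaffold gene (0.98), was higher and LIN7A (-0.54) lower at t = 48 than at t = 0, and PARD6A, which encodes a partner of PARD3, was lower at t = 24 (-0.71). PATJ passed the filter through 6 arrays, 3 of them induced at t = 48 and 0 at t = 0. The filter therefore favoured a PATJ rise over t = 0. Each of the PATJ, LIN7A and PARD6A calls was lost when some 1 array was left out (adjusted p up to 0.0977, 0.126 and 0.206 over all settings).

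Of 17 kept adherens junction genes out of 20, induced cells at t = 48 had 1 above and 2 below control cells. ADAM10, a membrane metalloprotease that docks at junctions with PLEKHA7, read 1182 ± 67.5 in induced and 823 ± 18.3 in control cells (SD, n = 3 each; 0.52, adjusted p = 0.00174), and its other 2 probe sets were also higher (0.37 and 0.52). NECTIN3, an adhesion receptor gene (-0.58, adjusted p = 0.0429), and SHROOM3, which encodes an actin-binding regulator of cell shape (-0.48, adjusted p = 0.0162), were lower. The call of NECTIN3 was lost without any 1 of the 6 arrays (adjusted p up to 0.143), and that of SHROOM3 without induced t = 48 replicate 2 or control replicate 1 or 3 (up to 0.0726); their second probe sets missed the threshold, at -0.14 and -0.26 against control cells. Against t = 0 at t = 48, 4 were higher and 2 lower, with JUP, the plakoglobin gene (0.81), and ADAM10 (0.62) higher and SHROOM3 (-0.65) and NECTIN3 (-0.56) lower. At t = 24, JUP (0.59), CTNNB1, the beta-catenin gene (0.44), and ADAM10 (0.38) were higher, and at t = 8 SHROOM3 was lower (-0.49). The second SHROOM3 probe set was lower than at t = 0 at each induced time, with -1.05 at t = 8 (adjusted p = 0.0145), -0.91 at t = 24 (adjusted p = 0.0118) and -0.89 at t = 48 (adjusted p = 0.00885). Its call at t = 48 held without any single array, that at t = 24 was lost without t = 0 replicate 2 (adjusted p = 0.0517) and that at t = 8 without t = 0 replicate 1 or 2 or induced t = 8 replicate 1 (up to 0.074). The other 2 CTNNB1 probe sets missed the threshold at t = 24 (0.44, adjusted p = 0.149, and 1.03, adjusted p = 0.1). Of the calls on the brightest probe sets, the JUP and CTNNB1 calls at t = 24, the SHROOM3 call at t = 8 and the NECTIN3 call at t = 48 were each lost without some 1 array (adjusted p up to 0.229, 0.16, 0.247 and 0.11 over all settings).

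Of the 4 kept genes among 5 other PLEKHA genes, 0 passed limma against control cells at t = 48, and PLEKHA2 (0.68) and PLEKHA1 (0.51) were higher than at t = 0. Both calls were lost without some single arrays (adjusted p up to 0.0809 and 0.103), and the second probe sets of PLEKHA2 (-0.07) and PLEKHA1 (0.24) missed the threshold. Without both arrays of weak hybridisation, the counts of the 4 lists in the order given, tight junction, polarity, adherens junction and other PLEKHA, were 0, 2, 2 and 0 against control cells at t = 48, and 3, 2, 4 and 0 against t = 0. Median log2 fold changes against control cells at t = 48 were 0.05 for tight junction, 0.02 for polarity, -0.05 for adherens junction and 0.27 for the other PLEKHA genes, against 0.01 over all probe sets. In control cells at t = 48 against t = 0, 0 genes of these 4 lists passed.

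**Figure D4:**
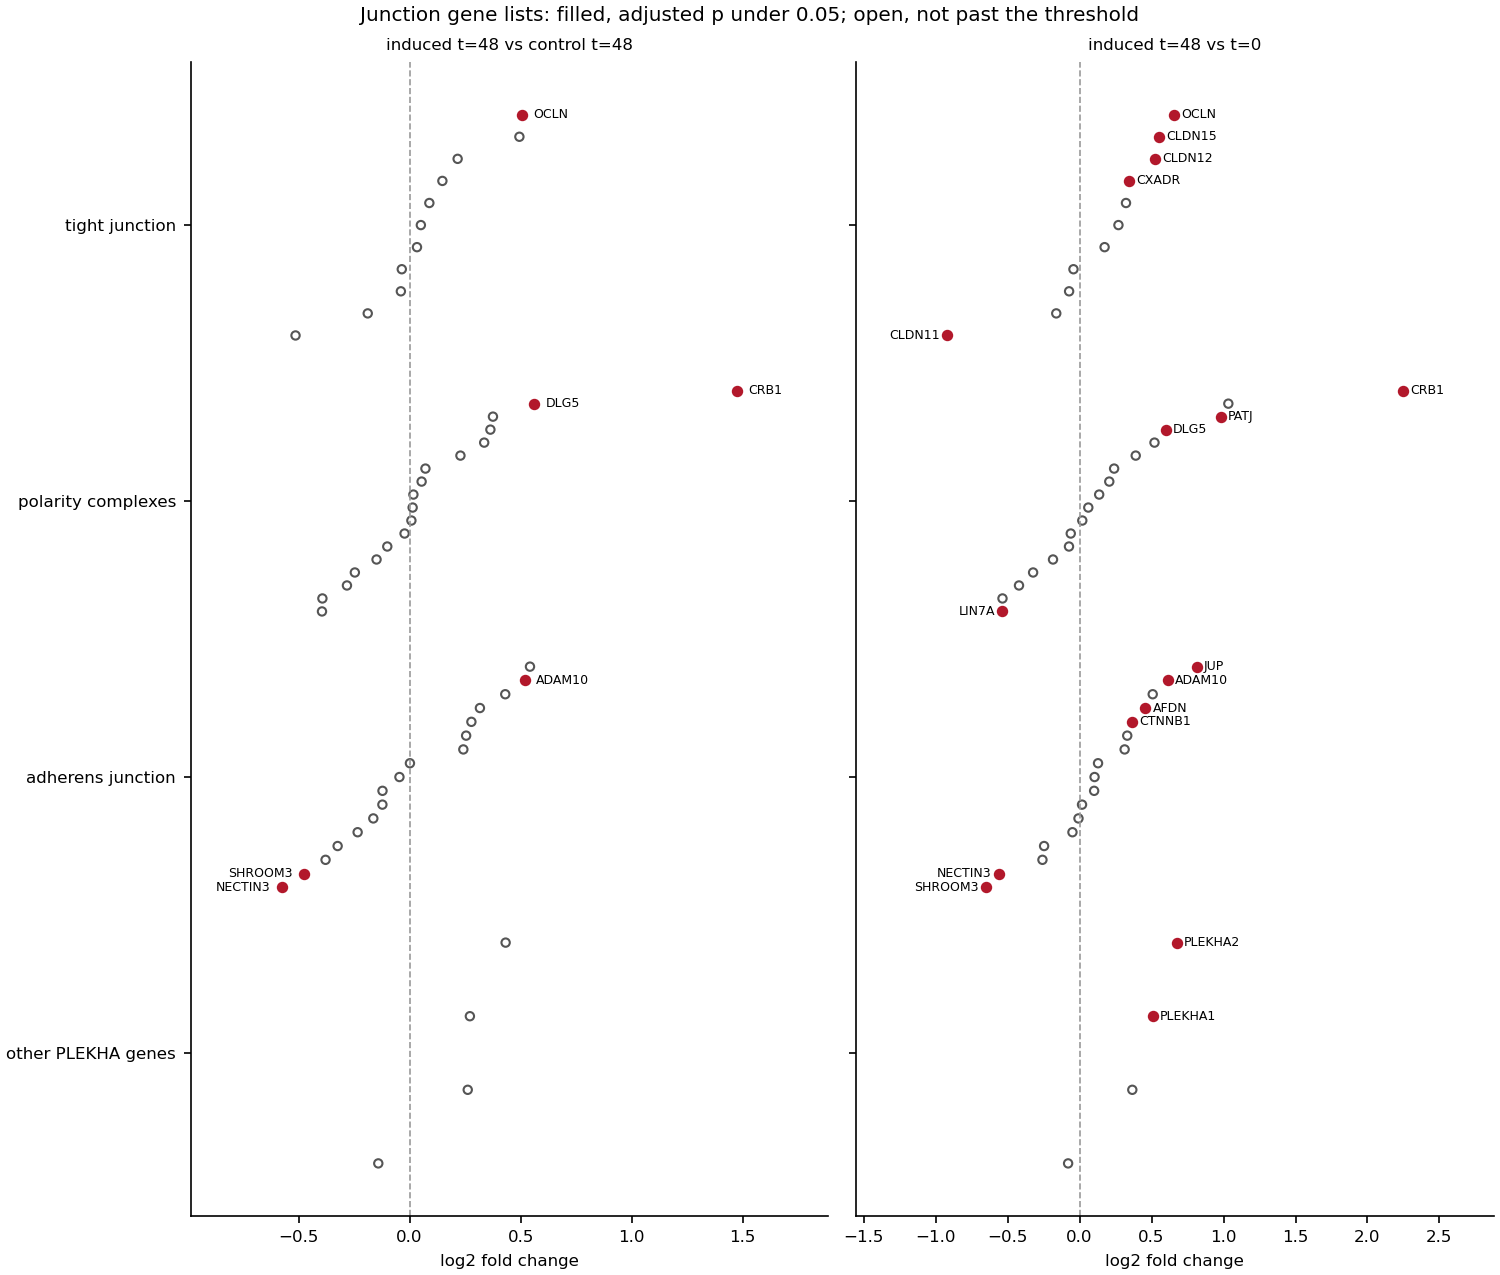
Log2 fold changes (horizontal axes) of the kept genes of 4 lists in induced cells at t = 48 against control cells (left) and against t = 0 (right). Each point is a gene by its brightest kept probe set. Filled points passed an adjusted p of 0.05 and are named. CRB1, at 1.48 and 2.24, was the farthest right and passed the filter mainly through induced arrays.

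The genes whose signals followed CGNL1 and PLEKHA6 most closely over the 15 arrays were named by Pearson r of the log2 values, among 837 genes whose group means spanned at least 1 log2 unit. For CGNL1 they were CDH11, a cadherin gene (r = 0.98), CT75 (0.97), SEMA5B, a semaphorin gene (0.97), NAV1 (0.96), CDKN1C, a gene of a cyclin-dependent kinase inhibitor (0.96), and MAST4 (0.96). For PLEKHA6 they were HEY1, a transcriptional repressor downstream of Notch (0.95), TIMP3, which encodes a metalloprotease inhibitor (0.95), ANKS1A (0.94), IGFBP5 (0.94), PRG2 (0.94) and NDRG1 (0.93). The points share 5 group means, and 30 genes for CGNL1 and 20 for PLEKHA6 had r above 0.9. The brighter probe sets of CGNL1 and PLEKHA6 correlated with each other at r = 0.89, and those of CGNL1 and TJP1 at 0.05.

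**Figure D5:**
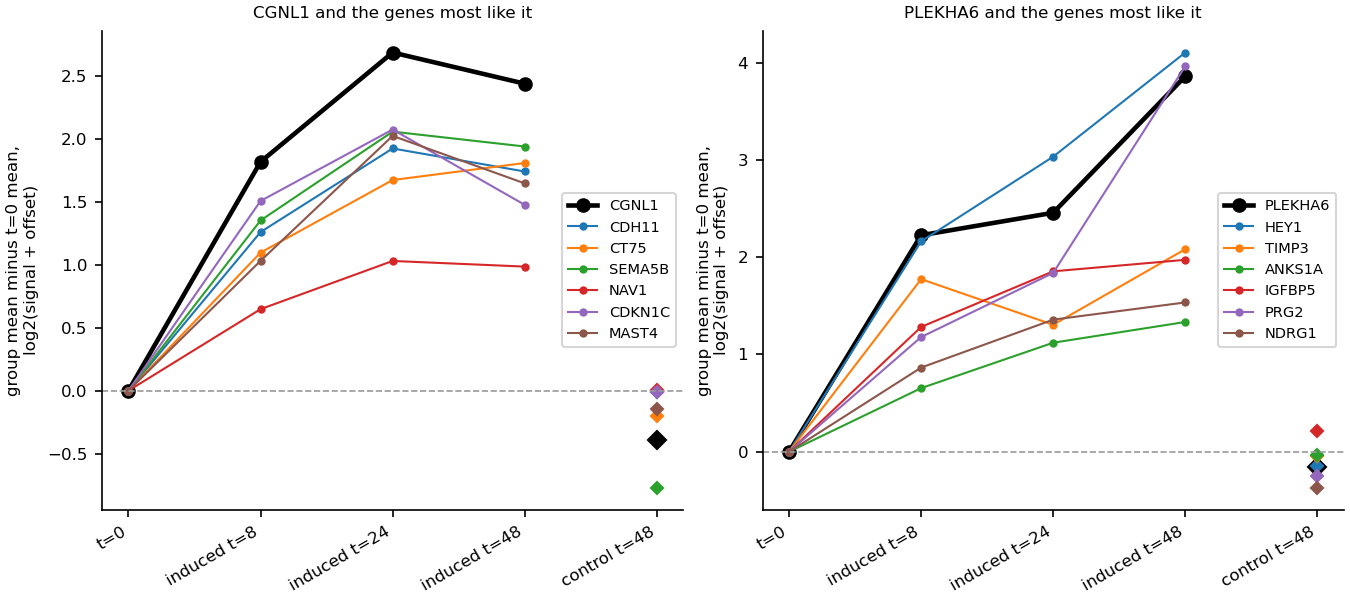
Group means relative to t = 0, in log2 of signal plus offset (vertical axes), of CGNL1 and PLEKHA6 (black) and the 6 genes most like each (colours) in the 5 groups; lines join t = 0 and the induced times, and diamonds are control cells at t = 48. CGNL1 stood at 2.69 at t = 24 and 2.44 at t = 48, and PLEKHA6 at 2.46 and 3.86.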

How the data were processed

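Per the labels, total RNA of 15 IMR32 samples was hybridised to Affymetrix arrays. The deposited values are linear signal intensities. Per the submitters' processing notes the tools were MAS5 and GCOS, and their versions are not given in the sources used here. Each array had a trimmed mean of 100.01, as after scaling as a whole. Precision is limited by how many arrays each group had.

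Of 54675 probe sets in the table, 62 array controls were left out. From the intensities, log2(signal + 5.16) was computed, the offset being the mean lower quartile of signal. The filter kept 30676 probe sets at or above their array's median on at least 3 arrays. The fit used lmFit and eBayes of limma 3.58.1 (R 4.3.3) with 5 group means over 15 arrays, with Benjamini-Hochberg adjustment over all kept probe sets, and was tested on simulated data. Members and gene lists were chosen with earlier results of these data known. Another gene list is not reported here. From each list, up to 4 genes with the largest change among those past the threshold were named per comparison, and the 6 genes most like CGNL1 and PLEKHA6. Alternatives covered the offset, scaling, filter, probe set per gene, variance model, groups fitted, a replicate block and single arrays left out. Whether replicate numbers pair the samples is not known, and the main fit did not use them.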

Additional observations from a re-analysis of the deposited data

How the results depend on the processing

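In the order induced against control cells at t = 48, induced t = 8, t = 24 and t = 48 against t = 0, control t = 48 against t = 0, induced t = 24 against t = 8 and t = 48 against t = 24, the counts of probe sets past the threshold were 1574, 339, 1864, 3506, 100, 731 and 691. Centring arrays on the median gave 802, 176, 918, 1930, 28, 219 and 412, and no filter 737, 191, 925, 1958, 33, 268 and 444. Fitting only the compared groups gave 790, 5, 436, 1350, 0, 48 and 205, with 0 member calls at t = 8 against t = 0 and in both steps between induced times. Without both weakly hybridised arrays, the count was 1043 against control cells, 1145 at t = 24 against t = 0, and 342 and 411 for the steps to t = 24 and to t = 48. With 1 probe set per gene induced t = 48 against t = 0 gave 2331, and with a robust variance trend control t = 48 gave 161 and the step to t = 24 gave 1296. Leaving out 1 array gave 763 to 1071, 197 to 241, 1061 to 1337, 1905 to 2789, 18 to 72, 320 to 530 and 422 to 688, and member counts of 3 to 3, 2 to 2, 2 to 2, 3 to 4, 0 to 0, 0 to 0 and 0 to 1. Every one of these left-out arrays moved its count by over 1.5 times in the order above, except induced t = 48 replicate 1; t = 0 replicate 2 and induced t = 8 replicates 2 and 3; t = 0 replicate 1 and induced t = 24 replicates 2 and 3; t = 0 replicate 1 and induced t = 48 replicate 1; control replicate 1; induced t = 24 replicate 3; and induced t = 24 replicate 1 and induced t = 48 replicate 3. In the first 4 comparisons the main member calls were those of CGNL1 and PLEKHA6, which were chosen there. Nothing is therefore read from the steadiness of those member counts. The 1 member call from t = 8 to t = 24 (CGNL1) was lost with offset 1, quantile normalization, no filter and without the weak arrays (0 calls each). With the replicate number as a block it was lost too (adjusted p = 0.0698, 0 calls). Same-numbered samples had correlations of -0.33 to 0.094 in their deviations from group means of 3 arrays. Such values show no pairing but cannot exclude it. The 2 member calls from t = 24 to t = 48 (PLEKHA6), 1 of them on a probe set whose direction the filter fixed, became 0 with offset 1, no filter and without the weak arrays, and 1 with median centring, quantile normalization, a filter of at least 6 arrays, 1 probe set per gene and a variance trend. Of 1610 member values under an alternative, 1574 stayed on their side of the threshold, 34 no longer passed, 2 newly passed and 0 reversed while past it. Another 84 changed sign without passing. The 1610 include CGNL1 and PLEKHA6 in the comparisons that chose them, so they are not a check of those calls. The alternatives on MSX1, the gene lists and their second probe sets were added after seeing the data. The smaller samples and larger or smaller tested sets account for part of these moves by construction, and otherwise the cause was not tested. Signals near 0, as in PLEKHA6 and CGN, limit every fold change given for them.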
